A study of Mus musculus with 6 samples.

Results

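The class II genes of the MHC and Ciita, 10 of the 39017 genes in the count table, were examined in iGBs (induced germinal center B cells, made in culture) with and without Prmt1, a protein arginine methyltransferase. Members were taken by gene symbol. They are the chains of the classical molecules I-A and I-E (H2-Aa, H2-Ab1 and H2-Eb1), the chains of the peptide editor DM (H2-DMa, H2-DMb1 and H2-DMb2) and of its partner DO (H2-Oa and H2-Ob), the invariant chain Cd74 and the transactivator Ciita. The rule used no measured value, although it was set with earlier results of these data known, and each symbol was found in the table once. None of the 10 passed the test for a difference between the genotypes. The values nearest to it were those of DM, whose alpha chain gene H2-DMa had more, and whose beta chain genes H2-DMb1 and H2-DMb2 had fewer, normalized counts in each Prmt1-null mouse than in any Control mouse. Such a lack of overlap was found in 19.9% of all genes tested, and H2-DMa overlapped under another scaling of the libraries (TPM, explained below).

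The libraries came from 6 mice on the C57BL6/J background, 1 library per mouse. Control mice carried Cg1-cre (Cγ1-cre) alone, and Prmt1-null mice carried it together with Prmt1f/f, so the recombinase was present in both groups. Each group had 2 females and 1 male, and the ages of the mice are not given in the sources used here. Splenic B cells were grown for 3.5 days on 40LB feeder cells, fibroblasts that display CD40L and secrete BAFF, with IL-4 at 5 ng/ml per the labels (the study's methods give a lower concentration), and the feeders were then depleted with an antibody to a class I molecule. The Cre is expressed only after a B cell starts to transcribe the IgG1 locus, so recombination follows activation. These are bulk measurements, in which fewer cells of a type and less RNA per cell cannot be told apart.

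MHC class II molecules are pairs of an alpha and a beta chain that show peptides from endosomes to CD4 T cells. In the endoplasmic reticulum the chains bind the invariant chain Cd74, which fills the groove and directs the complex to endosomes. Proteases there cut Cd74 down to the fragment CLIP, DM exchanges CLIP for a peptide, and DO, found mostly in B cells, holds DM back. Transcription of most of these genes depends on Ciita, a coactivator that binds no DNA itself and is recruited by RFX, CREB and NF-Y proteins seated on the X and Y boxes of the promoters. Cd74 and H2-Ob are known to be less dependent on it. In germinal centers, B cells compete for help from T follicular helper cells by the amount of peptide they show on class II, and plasma cells silence Ciita through the repressor Blimp-1, the product of Prdm1. C57BL/6 mice carry a broken H2-Ea gene and so make no I-E molecule, although H2-Eb1 is transcribed.

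The promoter windows below show runs of letters that match parts of the X and Y boxes. No binding was measured, and members were not compared by whether they carry these runs. RefSeq promoters on GRCm38.p6 were at hand for 7 of the 10 members, and the 250 bases before the start of each gene were searched on both strands for 2 short runs of letters, chosen after the sequences had been read. TGATTGG contains the core of the Y box and was present in 6 of the 7 members, against 7.23% of 32851 promoters. ATGATG, where the X box runs into the X2 box, was present in 4 of the 7, against 9.39% of promoters. In these 4 it began 21 to 24 bases before TGATTGG, and the runs did not overlap. A pair on the same strand with 20 to 25 bases between the starts was found in 5 promoters in all (0.0152%), those of H2-DMb1, H2-DMb2, H2-Eb1 and H2-Ob and that of Cypt12. The letters and the spacing were both chosen from the members' own promoters, so these shares are a description and no test. Capitals mark TGATTGG and the ATGATG paired with it, and each line runs 5′ to 3′ on the strand of the gene.
H2-Oa: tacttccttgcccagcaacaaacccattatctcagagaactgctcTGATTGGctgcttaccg
H2-DMb2: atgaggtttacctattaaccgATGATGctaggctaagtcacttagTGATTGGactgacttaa
H2-DMb1: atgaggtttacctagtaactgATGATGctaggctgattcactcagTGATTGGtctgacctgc
H2-Ob: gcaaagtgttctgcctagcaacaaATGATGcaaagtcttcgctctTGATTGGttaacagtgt
H2-Aa: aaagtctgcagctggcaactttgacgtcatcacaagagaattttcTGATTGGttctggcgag
H2-Eb1: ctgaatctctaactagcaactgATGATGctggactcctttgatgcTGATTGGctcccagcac

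The windows lie at chr17:34092289-34092350 (H2-Oa), chr17:34145112-34145173 (H2-DMb2), chr17:34153083-34153144 (H2-DMb1), chr17:34238801-34238862 (H2-Ob) and chr17:34305761-34305822 (H2-Eb1) on the plus strand and at chr17:34287857-34287918 (H2-Aa) on the minus strand. Counted from the RefSeq start of each promoter entry, which for H2-DMb2 and others differs from the start of the gene in the annotation used for positions elsewhere, TGATTGG began between position −92 (H2-DMb2) and position −45 (H2-Oa). Neither run of letters was found in the 2 promoter entries of H2-DMa, chr17:34122582-34122881 and chr17:34125268-34125567, and no other start of this gene was searched.

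Total counts on genes ran from 45343250 to 62774232 a library, and Prmt1 checked the labels. Its normalized counts, which are counts scaled by edgeR's TMM factors, were 3964, 3924 and 4838 with Cg1-cre alone and 1745, 1478 and 1477 with Prmt1f/f, a fold of 0.369, and it passed the test (adjusted p = 1.11e-05, edgeR). The 6 B cell markers reported here, such as Cd79a and Ms4a1, were expressed, with summed levels of 2735 to 3093 TPM (a level scaled by gene length and library) in Control and 3048 to 3154 TPM in Prmt1-null libraries. The summed levels were 3.36 to 4.25 and 4.15 to 5.66 TPM for 7 feeder fibroblast markers, with Lum at 0 counts in every library. They were 29.0 to 30.9 and 27.7 to 28.7 TPM for the 6 of 7 dendritic cell and macrophage markers matched by symbol, of which Flt3 made up most and Cd14 reached at most 2 counts. For 4 plasma cell markers they were 285 to 318 and 303 to 352 TPM, and for 4 T cell markers below 1 TPM in every library. The part of other cells in the class II values was not tested.

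Members were among the most abundant transcripts of these cells. Together they took 1.53%, 1.64% and 1.77% of all counts in the Control group and 1.67%, 1.60% and 1.69% in the Prmt1-null group, which overlapped. No member had fewer than 7366 raw counts in any library. In Control iGBs, Cd74 had the highest level of the 10, with 5207 ± 544 TPM (SD, n = 3 mice), rank 16 among all genes. It was followed by H2-Aa (1814 ± 62.4 TPM), H2-Ab1 (1729 ± 157 TPM), H2-DMb2 (1649 ± 85.5 TPM) and H2-Eb1 (1029 ± 104 TPM). A second tier held H2-DMa (239 ± 25.1 TPM), H2-Oa (220 ± 18.6 TPM), H2-DMb1 (196 ± 3.16 TPM) and H2-Ob (175 ± 4.10 TPM), and Ciita was the lowest with 106 ± 3.12 TPM. The Control ranges overlapped between H2-Aa and H2-Ab1, between H2-Ab1 and H2-DMb2 and between H2-DMa and H2-Oa, and the other neighbours in this order did not overlap. In Prmt1-null iGBs the order was the same but for H2-Ab1 (1807 ± 85.0 TPM) and H2-Aa (1765 ± 27.7 TPM), which stood in the reverse order. The order within a tier also depends on the length taken for a gene. With the longest transcript in place of all annotated exons, 4 members changed rank, and H2-Ab1 (3278 TPM) stood above H2-Aa (1913 TPM) and H2-Ob (316 TPM) above H2-Oa (206 TPM).

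**Figure D1:**
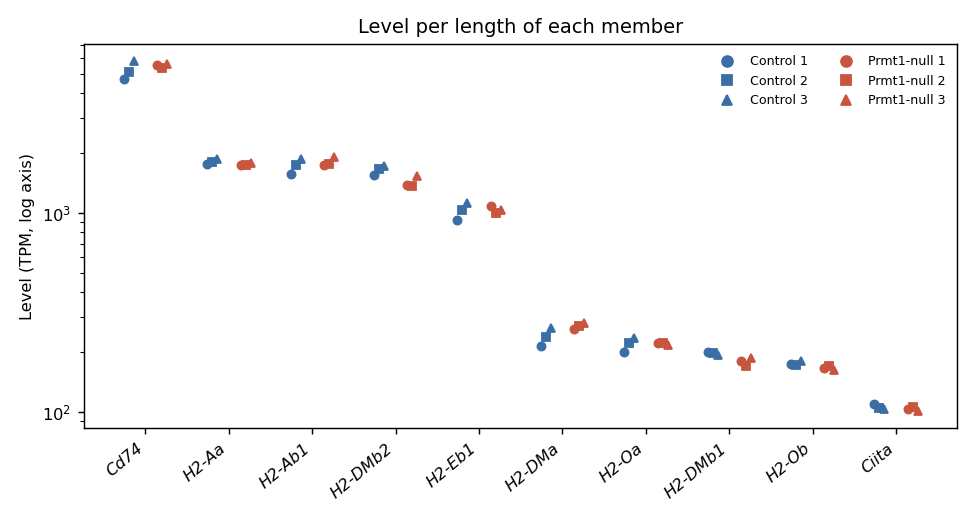
Level of each member in the 6 libraries, in TPM on a log axis, with blue points for Control and red points for Prmt1-null iGBs (n = 3 each) and members ordered by their Control mean. Cd74 is at the top at 5207 TPM, a tier of 4 genes lies between 1029 and 1814 TPM, and Ciita is at the bottom at 106 TPM.

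The comparison of genotypes asked whether transcript levels of the class II machinery differed after loss of Prmt1. Of the 10 members, all of which had enough counts to be tested, 0 had an adjusted p under 0.05 when edgeR's quasi-likelihood test was adjusted by Benjamini-Hochberg over all 18268 genes tested. The background was 1.18% of all genes past this threshold, which also asked for a mean normalized count over 100. DESeq2, which called 630 of all genes where edgeR called 216, and limma-voom, which called 249, also gave 0 members. At an unadjusted p under 0.05 there were 3 members, all of them chains of DM, where 13.5% of all genes reached it. Of these 1 was higher and 2 were lower, against 6.5% and 7.0% of all genes. The same 3 were the members whose groups did not overlap, against 19.9% of all genes tested (9.95% higher and 9.92% lower). Log2 fold changes ran from −0.19 to 0.19, with a median of −0.005 where the median of all tested genes was −0.001. Members' median absolute log2 fold change was 0.07, against 0.09 over the 7279 tested genes with a mean normalized count over 1000. The 95% intervals of the 10 members together reached from −20.5% to 27.7%.

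**Figure D2:**
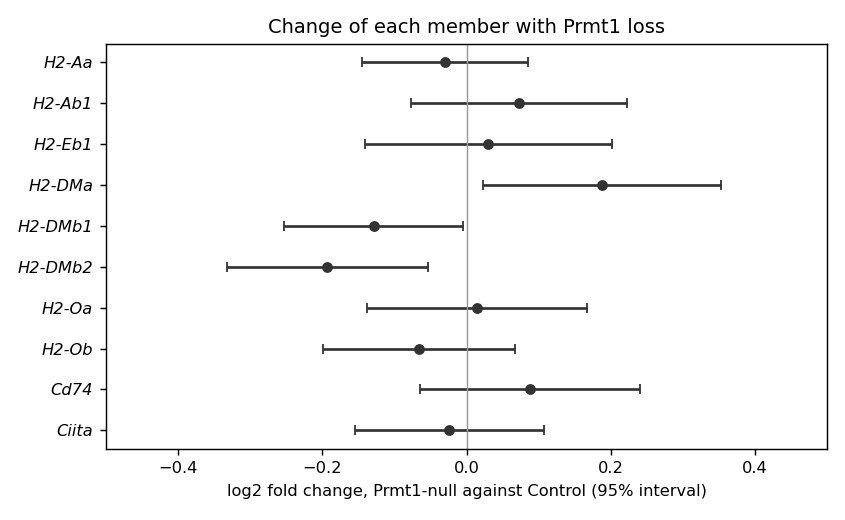
Log2 fold change of each member between Prmt1-null and Control iGBs, with bars for the 95% interval from edgeR's quasi-likelihood fit (n = 3 mice per group). Points lie between −0.19 and 0.19, and the intervals of H2-DMa, H2-DMb1 and H2-DMb2 do not reach 0.

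Ciita (ENSMUSG00000022504, mm10 chromosome 16, 10480059 to 10528418, plus strand) stood at 33332, 32034 and 32114 normalized counts in the Control mice and at 32864, 32615 and 30411 in the Prmt1-null mice. The groups overlapped, and Prmt1-null replicate 3 was the lowest of the 6. The difference was −1.63% (95% interval −10.2% to 7.71%, log2 fold change −0.02, standard error 0.061, adjusted p = 0.905, edgeR's quasi-likelihood test). Its exons overlap those of Dexi on the opposite strand. The coefficient of variation among Control mice was 2.24%, and of the members H2-DMb1 alone varied less.

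Genes for proteins known to bring Ciita to the promoters, or to act on its level, were also compared from lists by their RNA counts. Of the 7 enhanceosome genes tested (RFX subunits, NF-Y subunits and Creb1), 0 passed the threshold and the median log2 fold change was −0.0025. Rfx5, which contacts the X box, had a log2 fold change of −0.0025 (adjusted p = 0.99). Nfyb, a subunit of the Y box factor NF-Y, had the smallest p of the list, at 2202 ± 365 (SD) normalized counts in Control iGBs and 1835 ± 29.8 without Prmt1 (log2 fold change −0.26, adjusted p = 0.272, no overlap), followed by Nfya (−0.15, adjusted p = 0.456). Among 7 coactivators and corepressors 0 passed. Carm1, an arginine methyltransferase known to act with Ciita, had 2836 ± 115 and 3356 ± 115 normalized counts (log2 fold change 0.24, adjusted p = 0.0978, no overlap). It was among the 630 genes called by DESeq2 (adjusted p = 0.0348), and it overlaps Yipf2 on the opposite strand. Kat2b, a histone acetyltransferase, had a log2 fold change of −0.18 (adjusted p = 0.489). Adjusted p-values of these lists are from edgeR's quasi-likelihood test.

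Among 12 genes listed as upstream of Ciita 0 passed, 7 were higher and 5 lower, and the median log2 fold change was 0.06. Il4ra, a chain of the receptor for IL-4, which raises class II on B cells, had the smallest p of the list (log2 fold change 0.18, adjusted p = 0.204 from edgeR, no overlap). It was followed by Irf4 (0.16, adjusted p = 0.337). Prdm1 stood at 1497 ± 367 normalized counts in Control iGBs and at 1823 ± 85.8 without Prmt1 (log2 fold change 0.29, adjusted p = 0.384 from edgeR), with overlapping groups, and without Control replicate 3 it passed the threshold (0.50, adjusted p = 0.0212). Without that library Ciita again did not pass.

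**Figure D3:**
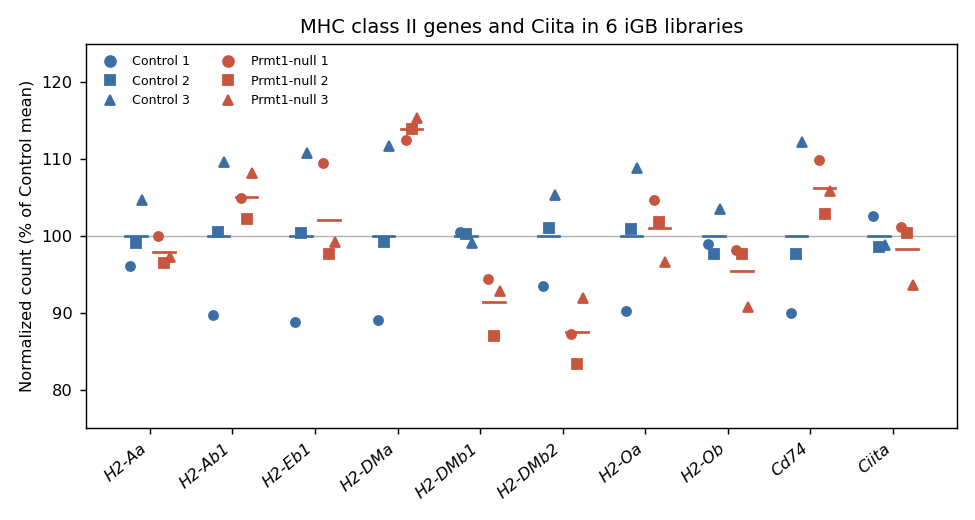
Normalized count of each member in the 6 libraries as a percentage of its Control mean (n = 3 mice per group, short lines are group means, marker shapes are replicate numbers). Control replicate 1 is the lowest Control library for 7 members and Control replicate 3 the highest for 8, and the groups are apart only for H2-DMa, H2-DMb1 and H2-DMb2.

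For the classical chains the genotypes overlapped throughout. H2-Aa (ENSMUSG00000036594, chromosome 17, 34282744 to 34287823, minus strand) encodes the alpha chain of I-A and stood at 212529, 219163 and 231424 normalized counts in the Control mice and at 221186, 213327 and 214973 in the Prmt1-null mice. All 3 Prmt1-null values lay within the Control range, and the difference was −2.06% (95% interval −9.58% to 6.10%, adjusted p = 0.858, edgeR). Its partner H2-Ab1 (ENSMUSG00000073421, chromosome 17, 34257689 to 34269419, plus strand) stood at 127905, 143212 and 156232 normalized counts in the Control mice and at 149583, 145622 and 154131 in the Prmt1-null mice. Here too the Prmt1-null values lay inside the Control range, with a difference of 5.14% (95% interval −5.22% to 16.6%, log2 fold change 0.07, adjusted p = 0.716). The log2 fold change was 0.0039 without Control replicate 1 and 0.14 without Control replicate 3 (adjusted p = 0.249). The beta chain of I-E, H2-Eb1 (ENSMUSG00000060586, chromosome 17, 34305867 to 34316674, plus strand), stood at 57009, 64479 and 71143 normalized counts in the Control mice and at 70282, 62686 and 63733 in the Prmt1-null mice, again overlapping (2.11%, 95% interval −9.32% to 15.0%, adjusted p = 0.907).

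Outside the 10 members, H2-Eb2, a beta chain gene next to H2-Eb1, was transcribed at 106 ± 2.61 TPM in Control and 98.9 ± 1.72 TPM in Prmt1-null iGBs. Its log2 fold change was −0.09 (adjusted p = 0.533 from edgeR), and the groups did not overlap. H2-Ea-ps, the broken alpha chain gene of this strain, had 24.3 to 41.5 normalized counts a library, or 0.954 ± 0.203 and 1.04 ± 0.250 TPM (log2 fold change 0.13, adjusted p = 0.933).

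Cd74 (ENSMUSG00000024610, chromosome 18, 60803848 to 60812652, plus strand) stood at 252391, 274198 and 315105 normalized counts in the Control mice and at 308347, 288812 and 297132 in the Prmt1-null mice. The groups overlapped, and Control replicate 3 was the highest of all 6. The difference was 6.25% (95% interval −4.42% to 18.1%, log2 fold change 0.09, adjusted p = 0.648, edgeR). Its value rested on single Control libraries more than that of most members. The log2 fold change was 0.18 (adjusted p = 0.0966) without Control replicate 3 and 0.02 without Control replicate 1. The summed level of Cd74 over that of H2-Aa, H2-Ab1 and H2-Eb1 was 1.11, 1.11 and 1.19 in Control and 1.20, 1.19 and 1.18 in Prmt1-null libraries, with overlap. With the longest transcript as the length of each gene all 6 ratios were below 1, from 0.865 to 0.934, so which of both sums was larger depended on the length taken. Of the ligand and coreceptors of Cd74, of which 3 were tested, 0 passed. The ligand Mif had 3521 ± 364 and 4110 ± 71.2 normalized counts (log2 fold change 0.22, adjusted p = 0.186, no overlap), and the signalling partner Cd44 a log2 fold change of 0.06 (adjusted p = 0.789).

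The chains of DM were the members whose groups did not overlap in normalized counts, as was so for 19.9% of all genes tested. H2-DMa (ENSMUSG00000037649, chromosome 17, 34119541 to 34139101, plus strand), its alpha chain, stood at 23563, 26240 and 29567 normalized counts in the Control mice and at 29762, 30139 and 30521 in the Prmt1-null mice. All Prmt1-null values lay above the Control values, but Control replicate 3 reached 29567, just under the lowest of them. The difference was 13.9% (95% interval 1.62% to 27.7%, log2 fold change 0.19, standard error 0.077, unadjusted p = 0.0283 and adjusted p = 0.288, edgeR). TPM scales the libraries without the TMM factors, and in TPM the groups of H2-DMa overlapped (264.8 for Control replicate 3 and 260.1 for Prmt1-null replicate 1). Without Control replicate 1 the log2 fold change was 0.11 (adjusted p = 0.502), and without Control replicate 3 it was 0.28 (adjusted p = 0.0577). Annotated exons of H2-DMa overlap Brd2 on the opposite strand, and Brd2 itself had a log2 fold change of 0.05 (adjusted p = 0.77).

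H2-DMb2 (ENSMUSG00000037548, chromosome 17, 34143307 to 34151555, plus strand), the more abundant of both beta chain genes, lay on the other side. It stood at 86450, 93403 and 97402 normalized counts in the Control mice and at 80624, 77026 and 84931 in the Prmt1-null mice. Every Prmt1-null value lay below every Control value, on the TPM scale as well. The difference was −12.5% (95% interval −20.5% to −3.67%, log2 fold change −0.19, standard error 0.065, unadjusted p = 0.0101 and adjusted p = 0.187 from edgeR). It came closest to the threshold with DESeq2's Wald test (adjusted p = 0.0538), and its adjusted p lay between 0.0538 and 0.219 over 6 other fits with all libraries.

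H2-DMb1 (ENSMUSG00000079547, chromosome 17, 34153072 to 34160230, plus strand), the second beta chain gene, stood at 10649, 10622 and 10504 normalized counts in the Control mice and at 10007, 9220 and 9833 in the Prmt1-null mice. The coefficient of variation of the Control values was 0.731%, and all of them lay above the Prmt1-null values. The difference was −8.55% (95% interval −16.1% to −0.338%, log2 fold change −0.13, standard error 0.058, unadjusted p = 0.0427 and adjusted p = 0.344 from edgeR). Both beta chain genes arose by duplication, and a part of their reads may not be told apart, although how many was not measured. The longest transcripts were 96.0% identical over 1045 aligned bases. Of all stretches of 50 bases in the transcript of H2-DMb1, 27.2% also occurred in another gene, mostly H2-DMb2, and of those of 100 bases 13.7%. Since alignments to up to 2 places were counted, some reads of one gene may have been given to the other. With the counts of both added, the log2 fold change was −0.19 (standard error 0.063, unadjusted p = 0.0103, adjusted p = 0.189). H2-DMb2 made up most of this sum (mean normalized count 86639, against 10139 for H2-DMb1), so the sum tells little of H2-DMb1 alone. The ratio of H2-DMb2 to H2-DMb1 in TPM was 7.81, 8.46 and 8.92 in Control and 7.75, 8.04 and 8.31 in Prmt1-null libraries, with overlap.

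The ratio of DM alpha to DM beta was formed after its chains had been seen to differ in opposite directions, so its difference is close to the sum of theirs by construction, and it is given as a description with no test. The level of H2-DMa over the summed level of both beta chain genes was 0.122, 0.127 and 0.138 in Control and 0.166, 0.176 and 0.163 in Prmt1-null libraries, without overlap. On the log2 scale the mean was −2.95 ± 0.090 (SD) in Control and −2.57 ± 0.061 in Prmt1-null iGBs, a difference of 0.38. A ratio of this kind shows unequal counts of both parts and not which of them differed.

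**Figure D4:**
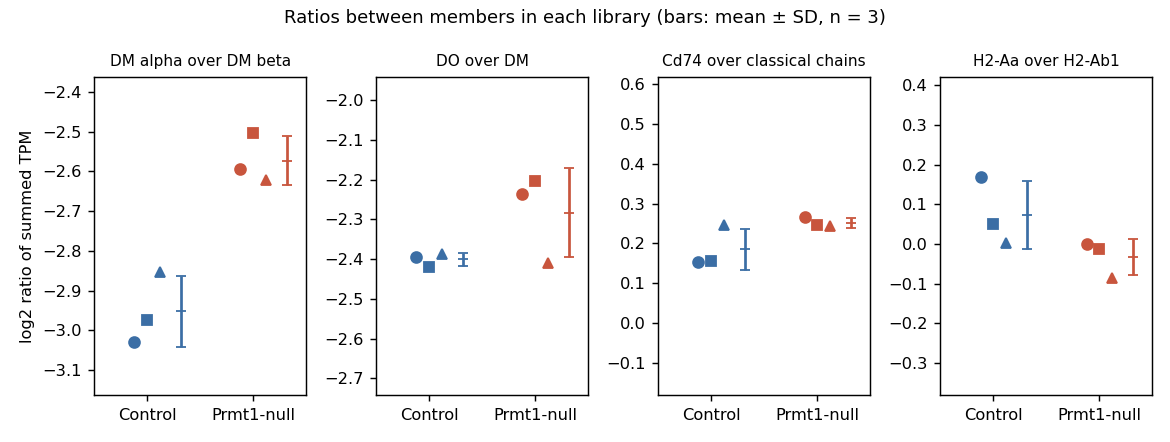
Log2 ratios of summed levels (TPM) between members in each library, in blue for Control and red for Prmt1-null iGBs, with bars for mean ± SD (n = 3 mice). DM alpha over DM beta lies at −3.03 to −2.85 in Control and −2.62 to −2.50 in Prmt1-null iGBs, while the groups overlap for DO over DM and for Cd74 over the classical chains, and H2-Aa over H2-Ab1 does not overlap by a narrow margin.

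The chains of DO overlapped between the genotypes. H2-Oa (ENSMUSG00000024334, chromosome 17, 34092340 to 34095234, plus strand), its alpha chain, stood at 8950, 10006 and 10787 normalized counts in the Control mice and at 10374, 10097 and 9575 in the Prmt1-null mice. The Prmt1-null values lay inside the Control range (1.01%, 95% interval −9.13% to 12.3%, adjusted p = 0.954 from edgeR), and its exons overlap BC051537 on the opposite strand. H2-Ob (ENSMUSG00000041538, chromosome 17, 34238903 to 34254414, plus strand), its beta chain, stood at 29909, 29516 and 31285 normalized counts in the Control mice and at 29689, 29515 and 27441 in the Prmt1-null mice. Prmt1-null replicate 3 was the lowest of the 6, and Prmt1-null replicate 2 lay just under the lowest Control value. Prmt1-null replicate 1 lay inside the Control range (−4.48%, 95% interval −12.9% to 4.73%, adjusted p = 0.705 from edgeR). The summed level of both DO chains over that of the 3 DM genes was 0.190, 0.187 and 0.191 in Control and 0.212, 0.217 and 0.188 in Prmt1-null libraries. Most of the DM sum was H2-DMb2, so this ratio of RNA does not measure assembled DO against assembled DM. Prmt1-null replicates 1 and 2 lay above all Control libraries and replicate 3 among them. H2-Aa over H2-Ab1 was 1.12, 1.03 and 1.00 in Control and 1.00, 0.991 and 0.943 in Prmt1-null libraries, without overlap, although the lowest Control (1.002) and the highest Prmt1-null value (0.9998) were nearly equal. With the longest transcripts this ratio lay between 0.524 and 0.625. H2-Ob over H2-Oa was 0.874, 0.771 and 0.758 in Control and 0.748, 0.764 and 0.750 in Prmt1-null libraries, with overlap.

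The Control mice differed among themselves in the same order for most members. Control replicate 1, the male of its group, had the lowest value of its group for 7 members and the highest for 2, and Control replicate 3 had the highest for 8. Prmt1-null replicate 3, the male of the other group, had the lowest value of its group for 3 members and the highest for 3. The highest Control library had 1.25 times the count of the lowest for H2-DMa, H2-Eb1 and Cd74 and 1.04 times for Ciita. Between Prmt1-null libraries the largest such ratio was 1.12, for H2-Eb1. Leaving out a library turned the sign of 4 members, H2-Aa, H2-Eb1, H2-Oa and Ciita, none of which had passed. When sex was added to the fit, the log2 fold changes were 0.19 for H2-DMa (adjusted p = 0.197) and −0.19 for H2-DMb2 (adjusted p = 0.135).

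Enzymes that prepare peptides and cut Cd74 held the one call of the class II pathway lists. Over all lists, 50 genes were tested, and 1 was called higher and 0 lower, against 0.58% and 0.602% of all genes. The call was Ctsd, cathepsin D, an aspartic protease of endosomes and lysosomes, which rose from 2709 ± 38.8 to 3585 ± 153 normalized counts (log2 fold change 0.40, standard error 0.064, adjusted p = 0.0087, edgeR). Its exons overlap those of Gm49369 on the same strand. The call held in all 6 other fits with all libraries (adjusted p up to 0.0172). It was lost in 3 of the 6 fits that left out a library, without Control replicate 2 (adjusted p = 0.0559), Prmt1-null replicate 1 (0.0614) and Prmt1-null replicate 3 (0.0688). Of the 9 processing genes, 6 were higher and 3 lower, the median log2 fold change was 0.14, and 5 had an unadjusted p under 0.05, where 13.5% of all genes did. Of the 5, Ctsd, Lgmn, Ctsb and Ctsh were higher and Ifi30, a thiol reductase of endosomes, was lower (log2 fold change −0.19, adjusted p = 0.224). Lgmn, the legumain protease, had 9210 ± 1028 and 10662 ± 250 normalized counts (log2 fold change 0.21, adjusted p = 0.209 from edgeR, no overlap), and without Control replicate 3 it passed the threshold (0.31, adjusted p = 0.024). Ctss, cathepsin S, the main enzyme for the last cut of Cd74 in B cells, had a log2 fold change of −0.007 (adjusted p = 0.979).

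For turnover at the surface, 5 genes were tested and 0 passed. March1, the ubiquitin ligase that removes class II from the surface, had 12160 ± 66.3 and 11258 ± 397 normalized counts (log2 fold change −0.11, adjusted p = 0.424 from edgeR, no overlap). March8, a related ligase, was sparsely counted at 70.1 ± 12.1 and 105 ± 21.4 (0.57, adjusted p = 0.42, no overlap). Cd83, which shields class II from March1, had a log2 fold change of 0.09 (adjusted p = 0.618).

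The class II region was also read as a stretch of the chromosome. From H2-Oa to H2-Ea-ps, mm10 chromosome 17 from 34092340 to 34344645, the table held 19 genes, of which 18 were tested and 0 passed, with a median log2 fold change of 0.04 and a range of −0.19 to 0.25. H2-DMa and both beta chain genes of DM lie next to each other on the same strand and had opposite signs. Between H2-DMb1 and H2-Ob lie the class I pathway genes Psmb9, Tap1, Psmb8 and Tap2, while Brd2 is no such gene and lies beside H2-DMa. All 5 neighbours on the list (Psmb9, Tap1, Psmb8, Tap2 and Brd2) were higher in Prmt1-null iGBs without passing, and 3 had an unadjusted p under 0.05, where 6.5% of all genes were higher at this p. Other genes of the region that are no members had both signs, as Gm20496 (log2 fold change 0.07), Gm15821 (−0.017), Gm20513 (−0.19) and H2-Eb2 (−0.09). Psmb9, a subunit of the immunoproteasome, had 3342 ± 174 and 3969 ± 167 normalized counts (log2 fold change 0.25, adjusted p = 0.0905 from edgeR, no overlap), and it was among the 630 genes called by DESeq2 (adjusted p = 0.0308). Psmb8, another subunit, had a log2 fold change of 0.16 (adjusted p = 0.261). Psmb9 and Tap1 share exon sequence on opposite strands.

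**Figure D5:**
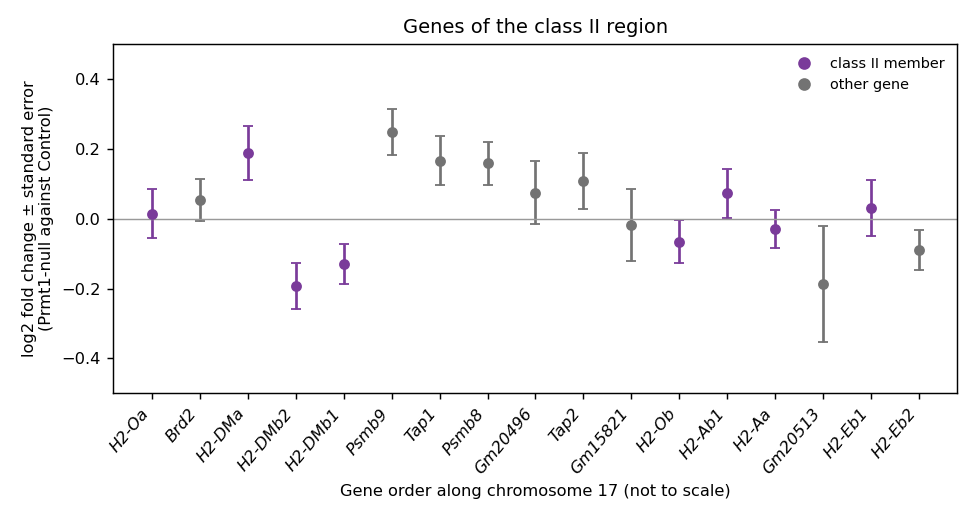
Log2 fold change ± standard error between Prmt1-null and Control iGBs for the 17 genes of the class II region with a mean normalized count over 100, in their order along chromosome 17, with class II members in purple and other genes in grey. H2-DMa (0.19) and its neighbours H2-DMb2 (−0.19) and H2-DMb1 (−0.13) point in opposite directions, and the other members lie between −0.07 and 0.07.

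Likeness of pattern was measured by Pearson's r of log2 CPM over the 6 libraries, among 13044 genes with a mean normalized count over 100, and is a description of 6 points that share library and depth. The genes outside the members that were most like the mean profile of H2-Aa, H2-Ab1, H2-Eb1 and Cd74 were Pacs1, Bag6, Hbb-bs, Fiz1 and Rhog (r from 0.982 to 0.988). Among the other members, r with this profile was 0.910 for H2-Oa, 0.759 for H2-DMa, 0.295 for H2-DMb2, 0.252 for H2-Ob, −0.084 for H2-DMb1 and −0.338 for Ciita. The genes most like Ciita were Bcorl1, B230307C23Rik, Chd7, Slc2a4rg-ps and Cpt2 (r from 0.972 to 0.981). H2-Ob was the member most like Ciita (0.682), and H2-Ab1 the least (−0.634).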

How the data were processed

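RNA-seq counts of iGBs from 3 Control and 3 Prmt1-null mice were used. Per the labels and the study's methods, the authors used Trimmomatic 0.32 for trimming and STAR 2.3.0e for alignment to mm10, and counted primary alignments to at most 2 locations on Ensembl exons with featureCounts 1.4.4. The deposited table holds 1 raw count per gene and library, neither normalized nor filtered. Libraries were rRNA-depleted and stranded, and the strand setting of the counting is not given in the sources used here, so values of overlapping genes are uncertain. Read length is likewise not given.

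Groups were taken from the sample titles. The comparison used edgeR 4.0.16 under R 4.3.3 (TMM, filterByExpr with a minimum count of 10, quasi-likelihood test, Benjamini-Hochberg adjustment), leaving out 398 chromosome Y genes as the study did. A gene passed with an adjusted p under 0.05 if its mean normalized count was over 100. Positions and lengths came from GENCODE M21 (GRCm38, the build of mm10), and TPM used the union of annotated exons. Of 39017 genes, 37607 matched by gene ID and 814 by symbol. A floor of 3 counts is 0.0478 to 0.0662 CPM and covers counting error only. The longest transcripts of H2-DMb1 and H2-DMb2 were aligned with Biopython 1.88.

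Alternatives were DESeq2 1.42.0, limma-voom (limma 3.58.1), median-of-ratios size factors, sex as a covariate, the replicate number as a block, no filter on low counts, each library left out, summed beta chain counts and another gene length. The fits were tested on simulated data. Genes named are the 10 members, Prmt1, pathway genes past the threshold, the 2 of each list with the smallest p and the genes most like the members in pattern. Rfx5, Prdm1, Ctss, Ctsb, Ctsh, Ifi30, Cd83, Brd2, other genes of the class II region and the ratios other than DO over DM and Cd74 over the classical chains were added after their values had been seen. Members and lists were chosen with earlier results of these data known. 1 B cell marker is not reported here.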

Additional observations from a re-analysis of the deposited data

How the results depend on the processing

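In each of 12 other fits 0 members passed the threshold. The number of all genes past it, 216, moved to 630 with DESeq2, to 675 with no filter on low counts and to between 31 and 340 with a library left out, and the class II pathway genes past it, 1, moved to 3, 2 and between 0 and 3. In the fits with all libraries each member kept its sign. With a library left out, the log2 fold change ran from −0.054 to 0.0051 for H2-Aa, from −0.045 to 0.11 for H2-Eb1, from −0.051 to 0.080 for H2-Oa and from −0.040 to 0.010 for Ciita. For H2-Ab1 it ran from 0.0039 to 0.14, for H2-Ob from −0.084 to −0.031, for Cd74 from 0.02 to 0.18, for H2-DMa from 0.11 to 0.28, for H2-DMb2 from −0.24 to −0.15 and for H2-DMb1 from −0.15 to −0.09. With another gene length 4 members changed rank by level. The same length, tried for the ratios after seeing the data, moved the difference in log2 ratio from 0.12 to 0.085 for DO over DM and from 0.07 to 0.055 for Cd74 over the classical chains. With a library left out these differences ran from 0.077 (without Prmt1-null replicate 2) to 0.18 (without Prmt1-null replicate 3) and from 0.052 to 0.097. The cause of these shifts was not tested. Same-numbered libraries come from different mice and did not deviate together (r of −0.075, 0.045 and −0.078 over 18268 genes for replicates 1, 2 and 3). With the replicate number as a block 151 genes and 0 members passed, and no call of a member changed. Standard errors of the members' log2 fold changes were 0.054 to 0.080 at 7366 or more counts a library.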
